A study of Mus musculus with 10 samples.

Results

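BFP clones that were rare before transplantation were followed from 2 donor mice into the leukaemias that grew from their cells. They were defined by the baseline values. A barcode of the BFP barcode pool was taken when it stood under 100 CPM in both baseline samples and above 0 in at least 1 of them. CPM gives the reads of a barcode on a scale where each sample sums to 1000000. The rule gave 5131 of the 8924 listed BFP barcodes (57.5%), or 26.0% of all 19704 listed barcodes. Of these clones, 3126 had reads in the baseline of donor 1 and 2212 in that of donor 2, and 207 were in both. A further 1263 BFP barcodes reached 100 CPM in a baseline, and 2530 were at 0 in both.

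All cells came from an MLL-AF9 leukaemia made from c-Kit-positive haematopoietic progenitors, which were grown with IL-3, IL-6 and SCF and marked with SPLINTR libraries. The 10 samples fell into 5 groups with 1 sample per donor mouse in each. These were the baseline cells before retransplantation, and bone marrow and spleen of NSG and of PTPRCA (Ptprca) recipients at disease. Ages and the number of recipients behind a sample were not given in the labels. A strain difference therefore cannot be told apart from a difference between individual recipients, and p-values measure only the spread between these samples.

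MLL-AF9 is a fusion of the genes Kmt2a (MLL) and Mllt3 (AF9) that drives acute myeloid leukaemia. SPLINTR barcodes are lentiviral inserts that pass from a cell to all its descendants, so that the share of a barcode among reads follows the share of its clone among cells. BFP, GFP and mCHERRY name fluorescent proteins carried by separate pools of such barcodes. NSG mice lack T, B and natural killer cells. Ptprca mice carry a variant of the leukocyte antigen CD45 and have a working immune system. A clone that is rare before transplantation may be missed when cells are injected, may persist, or may expand. Shares are relative, so that a clone can fall because others grew. No barcode sequence was paired with the names used here.

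The low values of each sample fit a mean of 2 to 4 technical libraries, each scaled on its own. On that reading, samples had 5171235 to 10394809 reads, and all values per library given here rest on it. A clone with 0 reads could have stood at up to 0.289 to 0.580 CPM, the level of 3 reads. Detection was therefore set at 1 CPM in every sample, outgrowth at 100 CPM and high levels at 1000 CPM. Reads came from PCR without molecular identifiers and the clones of a sample share 1 lysate, so that intervals and limits cover counting error only. In donor 2 the NSG samples were deeper (10394809 and 8468238 reads) than the PTPRCA samples (5826384 and 5634747). In donor 1, NSG bone marrow was the shallowest sample.

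At baseline the clones together held 7.03% of reads in donor 1 and 5.59% in donor 2, which was 31.1% and 19.2% of the reads of the BFP pool. The median clone stood at 13.2 CPM in donor 1 and 15.8 CPM in donor 2. In donor 1, 249 clones were under 1 CPM, 1110 at 1 to 10 CPM and 1767 at 10 to 100 CPM. Donor 2 had 222, 677 and 1313 in the same bands. The lowest band rested on few reads. Only 23.3% of its clones in donor 1 and 8.11% in donor 2 were in both technical libraries of the baseline. In donor 2, 145 of the 222 clones had no reads in the other baseline, and 12.4% of these were in both libraries. In donor 1 this was 23.4% of 244. At 10 to 100 CPM, 100% and 98.9% were in both, with a median difference between libraries of 1.27-fold and 1.52-fold.

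Clones at the threshold had unlike fates on either side of it. In donor 1, BFP_Barcode_36833 (99.96 CPM at baseline) was at 0 in all 4 disease samples. Its neighbour BFP_Barcode_424185 (99.9 CPM) stood at 169.8 and 19.05 CPM in marrow and spleen of NSG recipients and at 0 in PTPRCA. Just over the threshold, BFP_Barcode_146790 (100.02 CPM) reached 0.582 CPM in PTPRCA marrow only, and BFP_Barcode_170119 (100.05 CPM) 2.18 and 18.2 CPM in NSG only. In donor 2, BFP_Barcode_7293 (99.9 CPM) reached at most 2.01 CPM and BFP_Barcode_37649 (99.7 CPM) was at 0 throughout. Over the threshold, BFP_Barcode_136617 (100.27 CPM) reached 0.321 CPM. By contrast, BFP_Barcode_301876 (100.3 CPM) stood at 43.7, 102.6, 189.6 and 43.9 CPM in NSG marrow, NSG spleen, PTPRCA marrow and PTPRCA spleen.

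The baselines shared clones in an uneven way. The 207 clones with reads in both had a median of 30.4 CPM in the baseline of donor 1 and 2.02 CPM in that of donor 2, and 186 of them were higher in donor 1. In the donor 1 baseline 201 were in both technical libraries. In the donor 2 baseline only 15 were in both, while 190 were in the same single library and 2 in the other. At disease, these clones were largely those of donor 1: 66.7% to 93.7% were detected in its 4 disease samples, and 1.93% to 4.35% in those of donor 2, where 194 were at 0 in all 4. The more a donor 1 clone had grown at disease, the more often it was also in the donor 2 baseline. This held for 10 of 1677 clones at 0 in all 4 donor 1 disease samples, 53 of 895 that peaked at 1 to 100 CPM (5.92%), 106 of 312 that peaked at 100 to 1000 CPM (34.0%) and 36 of 43 that reached 1000 CPM (83.7%). The rare mCHERRY clones showed the same pattern, with 142 clones shared, 139 of them in 1 technical library of the donor 2 baseline only. How donor 1 barcodes came to be in that library was not tested. Results are therefore also given for the 2919 clones of donor 1 and 2005 of donor 2 with reads in 1 baseline only. Since sharing followed growth in donor 1, this restriction leaves out many donor 1 clones that had grown most. Lower outgrowth of the donor 1 clones that remain is thus partly set by the restriction.

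Apart from these, the donors' clones stayed separate. Of the 2005 clones absent from the donor 1 baseline, 1 to 3 were detected in each disease sample of donor 1 (0.0499% to 0.150%). For the 2919 clones absent from the donor 2 baseline, this was 0 to 2 in each sample of donor 2 (0% to 0.0685%, where a count of 0 allows up to 3 clones, or 0.103%). No clone reached 100 CPM at disease in both donors, and 7 reached 1 CPM in both. The donors therefore replicate the recipient groups, but not single clones.

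About 4 in 10 rare clones were found again at disease, more of them in NSG than in PTPRCA recipients. In donor 1, 1045 of 3126 clones were detected in NSG marrow (33.4%, exact Clopper-Pearson 95% interval 31.8% to 35.1%) and 960 in NSG spleen (30.7%). The PTPRCA marrow and spleen of donor 1 held 633 (20.2%, interval 18.9% to 21.7%) and 586 (18.7%). In donor 2, 628 of 2212 were detected in NSG marrow (28.4%) and 727 in NSG spleen (32.9%), against 415 (18.8%) and 399 (18.0%) in PTPRCA. Each NSG sample lay above each PTPRCA sample. Averaged over both tissues, 12.6 percentage points more clones were detected in NSG in donor 1 and 12.2 points more in donor 2, or 1.64 and 1.66 times as many. The exact permutation test, two-sided and exchanging strains within donors, gave p = 0.5, the smallest that 2 donors allow (adjusted p = 0.7 over 14 exact tests). Restricted to clones of 1 baseline, the mean difference was 12.5 points against 12.4 for all. At least 1 disease sample held 1250 of the donor 1 clones (40.0%) and 904 of the donor 2 clones (40.9%).

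The strain difference was present in all baseline bands of both donors, and its size varied with the band. Under 1 CPM, the mean share detected in donor 1 was 8.43% in NSG and 2.41% in PTPRCA, and in donor 2 it was 6.98% and 4.95%. At 1 to 10 CPM, the shares were 26.1% and 11.8% in donor 1 and 22.8% and 11.2% in donor 2. At 10 to 100 CPM, they were 39.2% and 26.7% in donor 1 and 38.7% and 24.4% in donor 2. Within the lowest band the counts were small, from 6 of 249 (interval 0.889% to 5.17%) in either PTPRCA tissue of donor 1 to 22 of 249 (5.62% to 13.1%) in NSG spleen. In donor 2 this band ranged from 10 to 19 of 222, and the intervals of all 4 samples overlapped. Since the bands were part of the rule, their order is given without a test. Only 58 clones of the lowest band in donor 1 and 18 in donor 2 were in both baseline libraries. Restricting the band to them raised its mean detected share over the 8 samples from 5.70% to 12.7%. Among its clones of 1 baseline only, this share was 7.13%.

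Within this set, baseline and disease level had a low positive correlation. Over all clones of a donor, Spearman's rho between baseline and disease CPM was 0.206 to 0.255 in donor 1 (3126 clones) and 0.158 to 0.245 in donor 2 (2212 clones). Among clones detected in a sample it was 0.181 to 0.289 in donor 1 and 0.069 to 0.269 in donor 2. The rule cut the baseline values at 100 CPM and most disease values were 0, so that a low rho is partly set in advance. These are correlations across clones that share 1 library preparation per sample, and clones are not independent replicates.

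Outgrowth was set at 100 CPM, a level that none of these clones had at baseline. By this definition every clone that had grown out was also detected. In donor 1, 245 clones had grown out in NSG marrow (7.84%), 221 in NSG spleen (7.07%), 88 in PTPRCA marrow (2.82%) and 68 in PTPRCA spleen (2.18%). Donor 2 had 94 (4.25%), 99 (4.48%), 55 (2.49%) and 53 (2.40%) in the same order. The NSG samples of both donors were again above all PTPRCA samples. NSG exceeded PTPRCA by 4.96 percentage points in donor 1 and 1.92 in donor 2 (exact permutation p = 0.5, two-sided, adjusted p = 0.7). Among clones of 1 baseline only, the donor 1 counts were 117, 125, 43 and 39 (4.01%, 4.28%, 1.47% and 1.34%). Those of donor 2 were 93, 98, 54 and 52 (4.64%, 4.89%, 2.69% and 2.59%), higher shares in all 4 samples. The restriction left out many donor 1 clones that had grown most, so that this order is not read as a difference between donors. The mean strain difference was then 2.43 points against 3.44 for all clones. In all, 355 clones of donor 1 and 201 of donor 2 grew out in at least 1 sample.

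Most clones that grew out had started at 10 to 100 CPM, the largest band, from which 100 CPM takes at most a 10-fold rise. In that band 213, 199, 81 and 61 clones of donor 1 grew out in NSG marrow, NSG spleen, PTPRCA marrow and PTPRCA spleen, and 86, 81, 48 and 49 of donor 2. From 1 to 10 CPM, 29, 20, 7 and 7 clones did so in donor 1 and 7, 16, 7 and 4 in donor 2. From under 1 CPM the counts were 3 and 2 in the NSG samples of donor 1 and 1 and 2 in those of donor 2. None grew out from this band in PTPRCA. A count of 0 allows up to 3 clones, or 1.2% of 249 in donor 1 and 1.35% of 222 in donor 2, so that no strain difference was detectable there. Clones from under 1 CPM peaked at 450.6 CPM in donor 1 and 300.8 CPM in donor 2, both in NSG. Every clone that reached 1000 CPM had started at 10 CPM or more.

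Levels of 1000 CPM were reached by 19, 30, 6 and 4 clones in the 4 disease samples of donor 1, and by 2, 6, 1 and 4 in those of donor 2. Without clones found in both baselines, the donor 1 counts were 1, 5, 1 and 1, whereas those of donor 2 did not change. The excess of high clones in donor 1 thus lay among clones that also had reads in the donor 2 baseline. Sharing followed growth in donor 1, so that leaving out shared clones takes out its high clones and is no comparison of the donors. Clones that stood above their own baseline include, by definition, all that grew out. In donor 1 these were 614 and 566 in NSG (19.6% and 18.1%) and 254 and 216 in PTPRCA (8.13% and 6.91%). In donor 2 they were 293 and 333 (13.2% and 15.1%) against 153 and 172 (6.92% and 7.78%).

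As a share of all reads, the rare clones stood above their baseline in both NSG samples of donor 1 and below it in the other 6 disease samples. These levels are set against values the rule used and have no test. They went from 7.03% at baseline to 12.5% and 14.4% in marrow and spleen of NSG recipients, and to 5.41% and 3.93% in PTPRCA. In donor 2 they went from 5.59% to 3.47% and 4.36% in NSG and 2.60% and 2.40% in PTPRCA. Clones of 1 baseline only, which lack many of the donor 1 clones that had grown most, stood below their baseline in all 8 samples. In donor 1 they went from 6.29% to 4.47%, 5.50%, 1.89% and 1.56%, and in donor 2 from 5.47% to 3.41%, 4.32%, 2.57% and 2.38%. The summed share was 2.13-fold higher in NSG than in PTPRCA (mean log2 difference 1.09, with 1.54 in donor 1 and 0.64 in donor 2, exact permutation p = 0.5, two-sided, adjusted p = 0.7). Among clones of 1 baseline only, the mean log2 difference was 1.08.

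Of the reads of the BFP pool, these clones held 61.6% to 74.5% in the disease samples of donor 1. In donor 2 their part was 65.4% and 70.5% for marrow and spleen of NSG recipients, and 46.5% and 21.1% for those of PTPRCA recipients. The rule kept each clone under 100 CPM at baseline and set no limit at disease, so that the part of the pool and the concentration at baseline are limited by the rule, and nothing is read from their difference to disease. The 10 largest rare clones held 1.41% of the set's reads in the donor 1 baseline, 20.4% and 31.5% in marrow and spleen of NSG recipients, and 48.7% and 47.4% in PTPRCA. In donor 2 they held 1.77% at baseline, 22.0% and 28.3% in NSG, and 29.6% and 39.6% in PTPRCA. Counted the other way, 50% of the set's reads lay in 517 clones of donor 1 at baseline, in 57 and 26 in NSG, and in 12 in either PTPRCA tissue. For donor 2 the numbers were 388, 49, 34, 21 and 16.

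The largest clone of the set was BFP_Barcode_19567 of donor 1. It stood at 71.4 CPM at baseline, at 1566 and 1260 CPM in marrow and spleen of NSG recipients, and at 14719 and 8351 CPM in PTPRCA marrow and spleen. It was high in all 4 samples and highest in PTPRCA, where it made up 1.47% of all marrow reads and 27.2% of the set's marrow reads. Next, BFP_Barcode_91094 went from 50.3 CPM to 2509.7 and 6033 CPM in NSG and 1183 and 1741 CPM in PTPRCA. BFP_Barcode_272340 went from 60.5 CPM to 1259 and 4394 CPM in NSG and 531.9 and 975.7 CPM in PTPRCA. Both were above baseline in all 4 samples and were highest in NSG spleen. For BFP_Barcode_335097 the values were 53.2 CPM at baseline, 5989 and 1289 CPM in NSG, and 123.8 and 691.01 CPM in PTPRCA marrow and spleen. The last of these is uncertain, since its 2 technical libraries gave 195.002 and 1187 CPM. BFP_Barcode_191274 went from 48.4 CPM to 469.2 and 6280.2 CPM in NSG and to 67.6 and 83.3 CPM in PTPRCA, little above its baseline. All 5 clones also had reads in the donor 2 baseline, from 2.02 to 19.3 CPM.

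Donor 2 had no clone of that size. BFP_Barcode_130343 went from 45.05 CPM to 617.4 and 1784 CPM in marrow and spleen of NSG recipients and 294.8 and 1196 CPM in PTPRCA. BFP_Barcode_1304 went from 94.0 CPM to 1135 and 838.6 CPM in NSG and 467.9 and 1241 CPM in PTPRCA. Both were above baseline in all 4 samples, and the strains overlapped. BFP_Barcode_341265 was at 70.3 CPM at baseline, 385.05 and 118.7 CPM in NSG and 663 and 1645.7 CPM in PTPRCA, lower in both NSG tissues. BFP_Barcode_250694 went from 31.02 CPM to 152.4 and 2130.8 CPM in NSG and 222.1 and 33.3 CPM in PTPRCA. It was high in NSG spleen alone, with PTPRCA spleen near its baseline. These 4 clones were at 0 in the donor 1 baseline.

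The lowest baseline from which a clone reached 1000 CPM was 10.6 CPM. This was BFP_Barcode_17 of donor 1, at 1841 and 120.3 CPM in marrow and spleen of NSG recipients and 368.6 and 134.3 CPM in PTPRCA. Its 2 baseline libraries gave 3.05 and 18.2 CPM, so that a fold over baseline has little precision. BFP_Barcode_2448 went from 13.3 CPM to 277.9 and 1319 CPM in NSG and 3.32 and 19.8 CPM in PTPRCA. BFP_Barcode_28599 went from 13.9 CPM to 2258 and 721.04 CPM in NSG and 17.3 and 271.4 CPM in PTPRCA. In donor 2, BFP_Barcode_8294 went from 15.02 CPM to 212.2 and 1122 CPM in NSG and 43.9 and 2.67 CPM in PTPRCA. Its baseline is as uncertain, with 26.0 and 4.04 CPM in the libraries. All of these were highest in 1 NSG tissue. BFP_Barcode_54230 went from 15.5 CPM to 1136 CPM in NSG spleen but stood at 68.7, 66.9 and 102.8 CPM in NSG marrow, PTPRCA marrow and PTPRCA spleen.

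Some clones grew in 1 recipient strain and stayed low in the other. BFP_Barcode_271065 of donor 1 went from 51.3 CPM to 3279.5 and 3514 CPM in marrow and spleen of NSG recipients and to 11.8 and 4.29 CPM in PTPRCA. NSG values were far above and PTPRCA values below its baseline, and the ratio of strain means was 422-fold. BFP_Barcode_252027 went from 16.2 CPM to 255.5 and 5132 CPM in NSG and was listed at 0 in both PTPRCA tissues. BFP_Barcode_250490 went from 19.2 CPM to 479.02 and 2687 CPM in NSG and was likewise listed at 0 in PTPRCA. These 3 clones also had reads in the donor 2 baseline (4.23, 4.23 and 24.4 CPM). In donor 2, BFP_Barcode_268656 went from 19.0 CPM to 2457 and 219.2 CPM in NSG and 13.2 and 6.73 CPM in PTPRCA, a 134-fold ratio of strain means. Here too the PTPRCA values were below the baseline. BFP_Barcode_215389 (61.7 CPM at baseline, 135.7 and 1368 CPM in NSG) and BFP_Barcode_403947 (21.8 CPM, 239.5 and 546.8 CPM) were listed at 0 in PTPRCA. The baseline libraries of BFP_Barcode_403947 gave 38.8 and 4.78 CPM, and those of BFP_Barcode_268656 gave 8.56 and 29.4 CPM.

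Other clones showed the opposite pattern. BFP_Barcode_59290 of donor 1 went from 16.4 CPM to 7.02 and 74.1 CPM in marrow and spleen of NSG recipients and to 767.2 and 1225 CPM in PTPRCA, 24.6-fold higher. BFP_Barcode_44210 (17.1 CPM at baseline) stood at 1.08 and 12.8 CPM in NSG and 395.1 and 138.2 CPM in PTPRCA. Its PTPRCA spleen value is uncertain, since the technical libraries gave 239.0 and 37.4 CPM. BFP_Barcode_224493, from 4.97 CPM, reached 25.5 and 15.8 CPM in NSG and 681.8 and 237.8 CPM in PTPRCA. None of these 3 clones had reads in the donor 2 baseline. In donor 2, BFP_Barcode_29107 went from 15.5 CPM to 800.4 and 528.8 CPM in PTPRCA and was listed at 0 in both NSG tissues. BFP_Barcode_191173 went from 7.92 CPM to 864.8 and 480.04 CPM in PTPRCA and 15.5 and 12.4 CPM in NSG, 48.3-fold lower there. BFP_Barcode_5302, at 60.4 CPM at baseline, reached 621.01 and 1503 CPM in PTPRCA but only 25.2 and 33.5 CPM in NSG.

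Over all clones, a difference of over 4-fold on CPM + 10, in the same direction in both tissues, was counted within each donor. With 1 sample per group it has no test. Only clones with at least 100 CPM in a disease sample of the donor could be counted, which let 355 of 3126 donor 1 clones and 201 of 2212 donor 2 clones through, and many passed only through the strain in which they were high. In donor 1, 131 of the 355 were higher in NSG (36.9%), where 25.1% of all 857 clones at this level were. In PTPRCA 10 were higher (2.82%), against 11.4% of all. In donor 2, 50 of 201 were higher in NSG (24.9%, against 20.2% of all 848) and 24 in PTPRCA (11.9%, against 10.1%). The donor 2 shares lay near the background and are not read as a property of rare BFP clones. With a pseudocount of 100 CPM the order turned in donor 2, with 1 clone higher in NSG and 3 in PTPRCA. Of the donor 1 clones in 1 baseline only, 81 of 213 were higher in NSG (38.0%, against 24.4% of all such clones) and 8 in PTPRCA (3.76%, against 19.5%). In donor 2 these were 49 of 198 (24.7%, against 20% of all such clones) and 23 (11.6%, against 9.81%). The median log2 difference between NSG and PTPRCA was 2.46 for the 355 clones of donor 1 and 1.43 for all 857, and 2.05 for the 201 clones of donor 2 and 1.12 for all 848. The rare BFP clones are themselves part of all clones in these shares. By the same count, 19.1% of 215 rare mCHERRY clones of donor 1 were higher in NSG and 11.6% in PTPRCA. For 263 rare mCHERRY clones of donor 2 the shares were 23.2% and 4.56%.

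No rare clone was called between strains when the donors were compared as replicates, but this fit could hardly have called one. Almost all clones were in 1 donor only, and no rare clone reached 100 CPM at disease in both. The gap between donors therefore entered the spread, and nothing is read from the lack of calls. In limma on log2(CPM + 10), with 1 mean per group, 0 of 3443 clones had an adjusted p under 0.05 (0% called), and 1 had an unadjusted p under 0.05, which was none of the 557 rare clones tested. With donor as a block, limma called 10 of 3443 (0.29%), of which 1 was a rare clone. This was BFP_Barcode_271065, with a log2 difference of 3.80 ± 0.97 (SE) and adjusted p = 0.0375. Its 4 disease samples in donor 2 were at 0, so that the call rests on donor 1. In this fit 69 of the 557 had an unadjusted p under 0.05 (12.4%, against 7.20% of all clones), and 61 of the 69 were higher in NSG. The block fit takes marrow and spleen as separate samples of a recipient group. With 1 mean per donor and strain, limma called 0. At an unadjusted p under 0.05 in this limma fit there was 1 rare clone (0.18%), against 0.52% of all 3443 clones. Fitted within a donor, with marrow and spleen standing in for replicates and 1 residual degree of freedom, limma called 122 of 356 rare clones in donor 1 (without donor 2), or 34.3%, against 34.4% of all 857 clones. In donor 2 (without donor 1) it called 45 of 201 (22.4%), against 28.3% of all 848. Neither share was above that over all clones. Both counts were 0 when the abundance filter also admitted clones high only in the baseline. The unadjusted p in limma was then under 0.05 for 107 rare clones of donor 1 (30.1%, against 19.3% of all 1722 clones). In donor 2 it was so for 38 (18.9%, against 16.4% of all 1736).

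Bone marrow and spleen of the same recipient group held largely the same clones. Of the clones detected in one tissue, 76.8% to 90.8% were also detected in the other. Of the grown-out clones of donor 1, 148 were shared by NSG marrow and spleen (60.4% and 67.0% of each) and 38 by PTPRCA marrow and spleen (43.2% and 55.9%). In donor 2, NSG tissues shared 33 (35.1% and 33.3%) and PTPRCA tissues 36 (65.5% and 67.9%). Spleen minus marrow, the share detected differed in donor 1 by -2.72 points (NSG) and -1.5 points (PTPRCA). The donor 2 differences were 4.48 points (NSG) and -0.723 points (PTPRCA). The mean spleen minus marrow difference was -0.118 points for detection (exact sign-flip permutation test, two-sided, p = 1) and -0.318 points for outgrowth (exact permutation p = 0.375, adjusted p = 0.7). On the log2 scale the summed share differed by -0.0095 between the tissues (exact permutation p = 1). The smallest p this test allows is 0.125. The signs of all 3 means changed among clones of 1 baseline only.

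Between strains, overlap was one-sided. Of the clones detected in a PTPRCA sample, 69.4% to 83.6% were also detected in an NSG sample of the same donor. Of those detected in an NSG sample, 43.6% to 52.3% were also in a PTPRCA sample. With both tissues pooled, clones detected in both strains numbered 579 of the 1250 detected in donor 1 (46.3%) and 372 of 904 in donor 2 (41.2%). In donor 1, 563 were detected in NSG only (45.0%, against 32.2% of all clones with baseline reads detected in any sample) and 108 in PTPRCA only (8.64%, against 14.3%). The same counts were 425 (47.0%, against 30.3%) and 107 (11.8%, against 11.6%) in donor 2. As for outgrowth, 22 clones of donor 1 and 8 of donor 2 grew out in all 4 samples, while 175 of 355 (49.3%) and 130 of 201 (64.7%) did so in 1 sample only. Of the grown-out clones, 237 in donor 1 did so in NSG alone (66.8%, against 42.4% of all clones) and 37 in PTPRCA alone (10.4%, against 19.5%). In donor 2 these were 129 (64.2%, against 40.9%) and 41 (20.4%, against 17.8%). These shares are a description, with no test. For overlaps between samples or strains, and for outgrowth in all 4 samples or in 1 only, no share over all clones is given. These overlaps and counts are therefore not read as particular to rare BFP clones.

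Few clones differed by tissue in both strains. Over 4-fold on CPM + 10, 4 donor 1 clones were higher in spleen, where 0.583% of all clones were, and 4 in marrow (1.28% of all). In donor 2, 0 were higher in spleen (0.472% of all) and 2 in marrow (0.59% of all). BFP_Barcode_9265 of donor 1 went from 79.1 CPM to 1017 and 4689 CPM in marrow and spleen of NSG recipients and 8.41 and 110.8 CPM in PTPRCA marrow and spleen, higher in spleen in both strains. Its PTPRCA spleen value is uncertain, since the technical libraries gave 31.4 and 190.2 CPM. BFP_Barcode_121028, from 40.9 CPM, stood at 21.4 and 132.01 CPM in NSG and 19.0 and 471.1 CPM in PTPRCA. BFP_Barcode_408481, from 96.1 CPM, stood at 22.9 and 159.4 CPM in NSG and 62.0 and 279.5 CPM in PTPRCA. Both were higher in spleen, and in PTPRCA spleen their technical libraries gave 57.2 and 885.0 CPM for the former and 172.2 and 386.7 CPM for the latter. BFP_Barcode_117930 went from 60.8 CPM to 315.5 and 17.2 CPM in marrow and spleen of NSG recipients and 67.0 and 0.550 CPM in PTPRCA, higher in marrow. BFP_Barcode_100767, from 52.0 CPM, stood at 498.6, 84.8, 176.4 and 11.5 CPM in the same order, and BFP_Barcode_306191, from 40.7 CPM, at 501.5, 66.2, 124.7 and 11.5 CPM. Their pattern was alike, with marrow above spleen in both strains. In PTPRCA spleen the technical libraries gave 17.3 and 5.65 CPM for each of them, and both had reads in the donor 2 baseline (7.17 and 6.25 CPM). Whether these barcodes mark separate clones was not tested. In donor 2, BFP_Barcode_185823 went from 35.2 CPM to 457.5 and 31.1 CPM in NSG and 395.4 and 32.7 CPM in PTPRCA, over 10-fold higher in marrow in both strains. BFP_Barcode_60069 went from 59.7 CPM to 113.8 and 14.1 CPM and to 1014 and 232.6 CPM. In limma, 0 of 3443 clones were called between tissues without the block (0%) and 0 with it (0%), and 0 had an unadjusted p under 0.05 in either fit. Since almost all clones were in 1 donor only, these fits could hardly have called one either.

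The spread between technical libraries bears on these values. It was measured in the 6 disease samples made of 2 libraries. A clone was counted once in each sample where it was in the range. All 547 such values of rare clones at 100 to 1000 CPM were in both libraries, and the median difference between libraries was 1.05-fold to 2.42-fold. Of these values, 27 differed by over 4-fold, 20 of them among the 64 clones of donor 1 PTPRCA spleen (31.25%) and 7 in donor 1 NSG marrow. At 10 to 100 CPM, 98.8% to 100% were in both libraries. At 1 to 10 CPM it was 77.1% to 99.7%, with median differences of 1.34-fold to 3.85-fold, so that a single value near the detection limit has little precision.

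Rare clones of the mCHERRY pool, taken by the same rule, were detected and grew out in larger shares than the BFP clones in each donor and strain. There were 1811 of them, with 907 in the donor 1 baseline and 1046 in that of donor 2. Averaged over tissues in each donor and strain, the share detected differed by -14.6 points, BFP minus mCHERRY (differences of -19.0 to -4.48 points, lower in 4 of 4 pairs). The share grown out differed by -10.4 points (-12.8 to -7.84 points, lower in 4 of 4). Both had an exact permutation p = 0.125 (two-sided sign flip, the smallest possible, adjusted p = 0.4375). The test takes the 4 pairs as independent, but both strains of a donor received clones of the same baseline. Only 2 donors thus stand behind this and the other p-values of BFP against mCHERRY shares. With donors as the units, the smallest exact permutation p would be 0.5. The largest differences were in the upper band. From 10 to 100 CPM, the shares differed by -23.1 points for detection (-29.4 to -9.62) and -15.6 points for outgrowth (-20.7 to -11.5), each with exact permutation p = 0.125. At 1 to 10 CPM the detected shares differed by 0.388 points (-6.79 to 7.28, exact permutation p = 0.625) and under 1 CPM by -0.163 points (-4.26 to 2.32, exact permutation p = 1). For outgrowth the differences were -1.8 points at 1 to 10 CPM (-4.20 to 0.46, exact permutation p = 0.25) and 0.420 points under 1 CPM (0 to 1.00, exact permutation p = 0.5). Among clones of 1 baseline only, the differences were -13.4 points detected (exact permutation p = 0.25) and -7.57 points grown out (exact permutation p = 0.125). An exact permutation p above 0.125 means that the share detected was then not lower for BFP in all 4 pairs.

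The strain difference itself was not shown to be particular to BFP. In donor 2, 12.2 points more BFP and 11.7 points more mCHERRY clones were detected in NSG. In donor 1 the NSG minus PTPRCA difference was 12.6 points for BFP and -1.98 points for mCHERRY clones. The mean difference of the strain differences was 7.54 points for detection (14.6 and 0.517, exact permutation p = 0.5, the smallest possible with 2 donors). For outgrowth it was -0.967 points (3.03 and -4.96, exact permutation p = 1), of opposite sign in the 2 donors.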

How the data were processed

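Barcodes were amplified from lysates of sorted viable cells in 2 rounds of PCR after the lysate was split, per the labels' protocols. Bowtie 1.2.2 and R 3.6 are listed in the submitters' processing notes. How technical replicates were combined, barcodes filtered and the barcode list made is not given in the sources used here. Values deposited by the authors are CPM, and each column sums to 1000000. Low values fit sums of whole multiples of 2 to 4 steps per column, read as technical libraries. The steps gave read totals of 23 libraries within 0.00972 reads of whole numbers. Where a column had 2 libraries (8 columns), each library's reads were recovered for 99.2% to 100% of values at or below 1000 CPM, as the 1 pair of whole counts within 0.6 of the last deposited digit. 0 columns belonged to other samples.

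The rare BFP clones, bands, tests and lists were chosen with earlier results of these data known. A clone was followed in a donor where its baseline was above 0. Shares carry exact Clopper-Pearson 95% intervals. Group values were tested with exact permutation tests and Benjamini-Hochberg adjustment over 14 tests. Single clones were tested with limma 3.58.1 (R 4.3.3) on log2(CPM + 10) of the deposited values over the 3443 clones with at least 100 CPM in a sample. This scale understates changes of low clones. Counting and exact tests ran in Python 3.11.15 (scipy 1.17.1, pandas 2.3.3, numpy 2.4.6), and the steps were tested on simulated data. The labels give same-numbered samples 1 donor mouse, which pairs them. Between any of the 10 pairs of groups, their deviations from group means had correlations of 0.466 to 0.944.

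Clones were named per donor as the 5 highest on average at disease, up to 3 with the lowest baseline among those at 1000 CPM, up to 3 per direction of those over 4-fold apart by strain or tissue, those called by limma and those next to 100 CPM at baseline. Alternatives were other thresholds, pseudocounts, filters and fold limits, each donor left out, donor as a block, single tissues, removal of the largest GFP barcode or largest rare clone, and baseline read minimums. The restriction to clones of 1 baseline or of 2 baseline libraries, the comparison of strain differences with mCHERRY, and the filter that counts the baseline were added after seeing the data.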

Additional observations from a re-analysis of the deposited data

Results flagged for a closer look

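The summed share of the rare BFP clones was higher in spleen than in marrow in NSG recipients of both donors (log2 differences of 0.20 and 0.33) and lower in PTPRCA recipients of both (-0.46 and -0.12), so that every sample pair of one strain moved against those of the other. The mean difference between the strains was 0.55 on the log2 scale (exact permutation p = 0.5, two-sided, the smallest that 2 donors allow).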

How the results depend on the processing

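Higher values in NSG kept their direction under all alternatives tried for detection (12 alternatives, 9.08 to 14.9 points), outgrowth (11, 0.346 to 9.08 points) and summed share (10, log2 0.64 to 1.54). These are values of designs that cannot reach a p under 0.05. Exchanging strains without the replicate block gave the same differences, with an exact permutation p of 0.333 for detection and outgrowth and 0.667 for the summed share. The spleen minus marrow differences, all near 0, changed sign: detection to 0.0033 points among clones of 1 baseline and -2.11 to 1.88 with a donor left out; outgrowth to 0.151 at 1000 CPM, 0.0717 among clones of 1 baseline and -0.704 to 0.0678 with a donor left out; summed share to 0.018 without the largest clone of each sample, 0.063 among clones of 1 baseline and -0.13 to 0.11 with a donor left out. The cause was not tested. BFP minus mCHERRY changed sign at 1 to 10 CPM for detection (0.388 points) and under 1 CPM for outgrowth (0.420 points). Counts of clones over 4-fold apart moved with the pseudocount and the fold limit, by construction. In donor 1, those higher in NSG numbered 27 at a pseudocount of 100, 217 at 2-fold, 71 at 8-fold and 81 among clones of 1 baseline. Those higher in PTPRCA numbered 16 and 2 at pseudocounts of 1 and 100, 20 at 2-fold and 2 at 8-fold. In donor 2, those higher in NSG numbered 80 and 1 at pseudocounts of 1 and 100, 84 at 2-fold and 24 at 8-fold, and those higher in PTPRCA 3 at a pseudocount of 100, where the order turned, and 12 at 8-fold. By tissue in donor 1, clones higher in spleen numbered 7 and 0 at pseudocounts of 1 and 100, 16 at 2-fold and 0 at 8-fold, and those higher in marrow 9 and 0, then 19 and 0, and 1 among clones of 1 baseline. By tissue in donor 2, clones higher in spleen numbered 1 at a pseudocount of 1 and 8 at 2-fold, and those higher in marrow 5 and 0 at pseudocounts of 1 and 100, 11 at 2-fold and 1 at 8-fold. Mean detection of clones under 1 CPM (5.70%) became 12.7% in clones of 2 baseline libraries, 9.49% above 0 and 2.13% at 10 CPM. At a limit of 10 CPM it became 8.18% for clones of 1 to 10 CPM and 19.5% for those of 10 to 100 CPM. Outgrowth from under 1 CPM became 1.39% in clones of 2 baseline libraries. These were only 58 clones in donor 1 and 18 in donor 2, so that both shares rest on few clones. With donor as a replicate block, limma called 1 rare clone between strains in place of 0, and 45 to 122 with a donor left out (22.4% and 34.3% of those tested, against 28.3% and 34.4% of all clones, and 0 where the filter also counted the baseline). Removing the largest GFP barcode before scaling changed no direction. Depth limits clones under 1 CPM, most of which were in 1 baseline library.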

Other observations

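One rare BFP clone grew out in a donor in whose baseline it had no reads. BFP_Barcode_519500 was at 0 in the donor 1 baseline and at 4.59 CPM in that of donor 2. At disease it stood at 27.8 and 27.3 CPM in NSG marrow and spleen and at 118.9 and 17.9 CPM in PTPRCA marrow and spleen of donor 1, and at 0 in all 4 samples of donor 2. It was singled out after its values were seen.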
